A study of Homo sapiens with 6 samples.

Results

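Interferon-stimulated genes were examined in SUM159 oncospheres as a list of 44 genes named by symbol. On the array, 43 of the 44 were covered by a probe set annotated to that gene alone and were followed, out of 19775 genes so covered in all, and STAT2 was not analysed here. SUM159 is an established human breast cancer cell line, and oncospheres are floating clusters that such cells form when they cannot attach. The SCGB3A1 group (3 arrays) was transduced with a pLVX-puro lentiviral vector that encodes human SCGB3A1, a small secreted protein, and the control group (3 arrays) with the empty pLVX-puro vector. Both groups underwent 7 days of selection in 2 µg/ml puromycin, and were then seeded at 12500 cells/ml on ultra-low attachment plates and cultured for 5 days in HuMEC medium. All 6 arrays therefore hold cells that carry a lentiviral vector and survived selection, and no untransduced or interferon-treated cells were compared here. The 3 arrays of a group are titled biological replicates, and the sources used here do not say whether each was a transduction of its own.

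The transcript of SCGB3A1 did not stand out in the arrays that carry its name. The only SCGB3A1 probe set gave 6.60, 6.92 and 6.71 in SCGB3A1, against 6.80, 6.89 and 7.05 in control (log2 difference -0.17 ± 0.10 SE, adjusted p 0.835 with limma), and whether it detects the vector's transcript is not stated in the sources used here. The probe set's control mean of 6.91 lay at percentile 36.0 of all genes, within the 6.19 to 7.98 range of genes restricted to other tissues (below). The study's methods state a qPCR check of expression in cells transduced and selected in this way, without naming these cultures. Directions are given for the arrays as labelled, and every one would be reversed if the labels were exchanged.

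Interferons are secreted proteins, many of which cells release when they sense viral nucleic acid. Type I and type III interferons bind receptors coupled to the kinases JAK1 and TYK2, which activate the transcription factor complex ISGF3, of which STAT2 and IRF9 are parts. ISGF3 binds the interferon-stimulated response element (ISRE) in promoters, whereas interferon gamma acts at the gamma-activated site (GAS). The induced genes encode RNA sensors, enzymes and restriction factors that block viruses, chemokines, and feedback inhibitors of the pathway. In tumour cells, a part of this programme can be expressed without any added interferon, and it has been linked to treatment resistance.

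The promoters of the listed genes carried the response element far more often than promoters at large. RefSeq promoter windows of GRCh38.p14, which run from 250 bases before to 50 bases from the transcription start, were available for 35 of the 44 genes. As a simple form of the ISRE, the letters GAAA followed after any 2 bases by GAAA were searched on both strands, and they occurred in 24 of these 35 genes (68.6%), against 1195 of 27305 genes with a window (4.4%). Counted by window of 300 bases, they occurred in 28 of 44 windows of the listed genes (63.6%), against 1255 of 35116 windows in all (3.6%). Windows of the same gene can overlap, and the same matches were counted in both windows of IFI27 and in both of IFI44. The letters TTCNNNGAA, a form of the GAS, occurred in 10 of the 35 genes (28.6%), against 2560 genes in all (9.4%), and in 25.0% of the windows against 7.7%. Each motif was counted by itself, and matches of the 2 motifs may share bases. A match says that these letters stand in the window, and binding was not measured.

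Stretches around the ISRE letters follow for genes that the results below turn on, chosen from both directions of difference and from the genes with high array levels. Each runs 5′ to 3′ on the strand of its gene, with the matched letters in capitals.
CXCL10, chr4:76023689-76023738, minus strand: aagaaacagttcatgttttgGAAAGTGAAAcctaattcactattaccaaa
BST2, chr19:17405725-17405780, minus strand: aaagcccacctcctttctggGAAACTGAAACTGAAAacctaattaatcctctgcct
IFIT3, chr10:89332415-89332507, plus strand: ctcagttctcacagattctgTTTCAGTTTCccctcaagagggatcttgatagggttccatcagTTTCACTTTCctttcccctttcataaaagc
IFIT1, chr10:89392487-89392549, plus strand: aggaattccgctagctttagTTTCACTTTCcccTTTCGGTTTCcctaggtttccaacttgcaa
RSAD2, chr2:6877612-6877661, plus strand: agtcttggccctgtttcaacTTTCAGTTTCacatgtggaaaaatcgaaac
ISG15, chr1:1013364-1013419, plus strand: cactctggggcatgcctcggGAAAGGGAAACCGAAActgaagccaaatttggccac
IFITM3, chr11:320866-320932, minus strand: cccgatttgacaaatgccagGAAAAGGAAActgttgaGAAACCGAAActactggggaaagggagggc
LGALS3BP, chr17:78979952-78980001, minus strand: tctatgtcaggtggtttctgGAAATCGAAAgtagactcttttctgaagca

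IFIT3 and RSAD2 had windows at 2 start sites each, and the letters occurred in both windows of IFIT3 and in 1 of RSAD2. In BST2 and ISG15 the letters overlapped as a run of GAAA repeats, and in IFIT1 and IFIT3 they lay on the other strand in a pair. CXCL11, the gene with the highest difference between the groups, had no ISRE letters and 2 matches of the GAS letters in its window. IRF9 and IRF1 had a single GAS match each and no ISRE letters. Among the genes at an unadjusted p under 0.05 (below), 2 of the 4 higher genes with a window and 3 of the 3 lower genes with a window held the ISRE letters, as did 19 of 27 other genes. IFIT2, IFITM2, MX2, OAS2, OASL, IRF7, GBP2, TRIM22 and USP18 had no window in the table used.

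The measurements are deposited log2 values after robust multiarray averaging (RMA), which puts all arrays on 1 distribution. A difference of 1 on this scale is a doubling of signal. Probe sets differ in how well they bind, so levels are placed among all genes as a percentile and are not compared between genes as amounts of RNA.

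Most of the listed genes gave signals above the middle of the array in both groups. The sources used here name no interferon added to the cultures and do not give the full composition of the medium. The 43 genes had a median level of 9.17 in SCGB3A1 and 9.08 in control oncospheres, where the median over all genes was 7.50 in SCGB3A1 and 7.49 in control. In control, 40 of 43 genes lay above the median gene, and their median percentile was 75.3. A set of 19 genes restricted to other tissues, such as INS and GCG, gave a guide to the floor of the arrays and ran between 6.19 and 7.98 in control with a median of 6.55. Of the 43 genes, 34 lay above the highest of these 19 (SFTPC) and all 43 above the second highest (HBB, 7.24). By percentile in control, 8 genes lay above 90, 26 between 60 and 90, and 9 below 60, with a range from 46.6 to 99.4. The levels in each array are plotted by role.

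**Figure D1:**
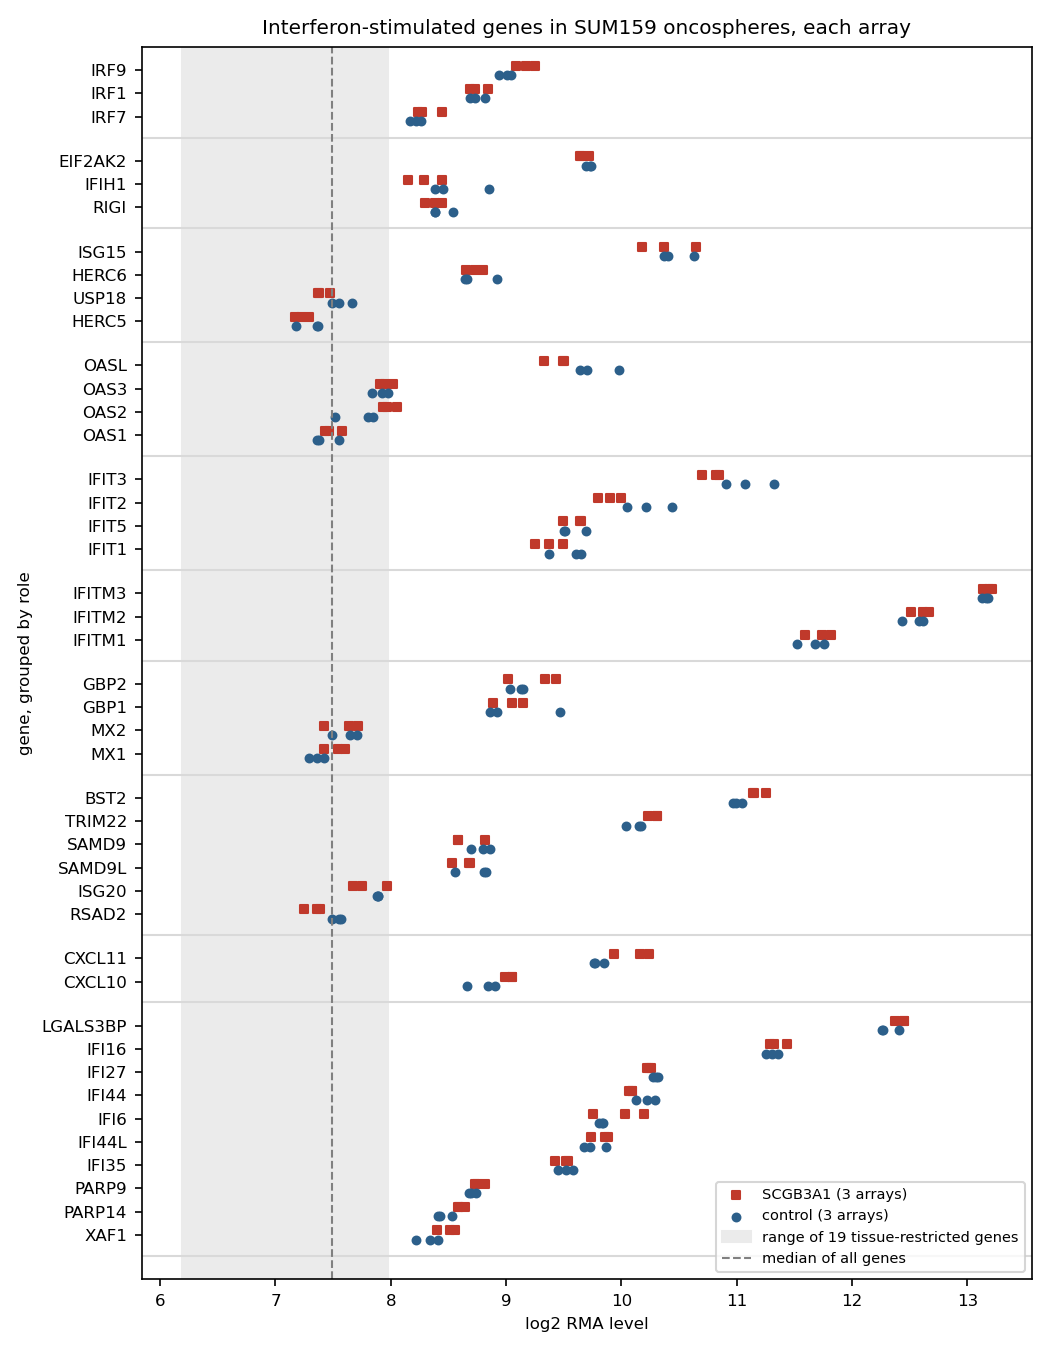
Level of 43 interferon-stimulated genes in each array (x axis, log2 RMA level), grouped by role (y axis), with SCGB3A1 as squares above and control as circles below. The grey band is the control range of 19 tissue-restricted genes (6.19 to 7.98) and the dashed line the median of all genes (7.49); the 3 IFITM genes and LGALS3BP lie far to the right, and 9 genes, HERC5, MX1, OAS1 and RSAD2 among them, have control means within the band.

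The highest control means were those of IFITM3, IFITM2, LGALS3BP, IFITM1, IFI16 and IFIT3, of which IFIT3 is given below with its family. IFITM3, a membrane protein that blocks the entry of enveloped viruses, gave 13.19, 13.14 and 13.21 in SCGB3A1, against 13.18, 13.16 and 13.13 in control. IFITM2, its close relative, gave 12.67, 12.62 and 12.51 in SCGB3A1, against 12.62, 12.43 and 12.58 in control. IFITM1, the third of this family, gave 11.82, 11.74 and 11.59 in SCGB3A1, against 11.76, 11.52 and 11.68 in control. In all 3 the groups overlapped, and the log2 differences (SCGB3A1 minus control) were 0.028 to 0.064. The IFITM genes are near-identical in sequence and their probe sets may cross-hybridize, so that these 3 rows are not separate evidence. LGALS3BP, a secreted glycoprotein that binds galectin 3, gave 12.45, 12.45 and 12.37 in SCGB3A1, against 12.26, 12.27 and 12.41 in control. IFI16, a nuclear sensor of foreign DNA, gave 11.29, 11.32 and 11.44 in SCGB3A1, against 11.25, 11.31 and 11.36 in control. The LGALS3BP groups overlapped only through control replicate 3 (log2 difference 0.11 ± 0.08 SE), and the IFI16 arrays were interleaved.

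At the other end stood genes that are textbook targets of interferon. HERC5, the ligase that attaches ISG15 to proteins, gave 7.17, 7.22 and 7.29 in SCGB3A1, against 7.37, 7.18 and 7.36 in control. MX1, a GTPase that traps viral nucleocapsids, gave 7.54, 7.42 and 7.60 in SCGB3A1, against 7.36, 7.42 and 7.29 in control. OAS1, which makes the oligoadenylates that switch on RNase L, gave 7.43, 7.46 and 7.58 in SCGB3A1, against 7.38, 7.36 and 7.55 in control. These 3 genes lay at percentiles 46.6, 47.8 and 49.1 in control, near the median gene and within the range of the tissue-restricted genes. RSAD2 (viperin) stood beside them and is given below. At such levels RMA compresses differences, so that any folds of these genes may be understated, which was not tested.

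No listed gene passed the test between the groups, and the differences were small. With limma across 54613 probe sets and Benjamini-Hochberg adjustment, 10 probe sets (0.0183%) had an adjusted p under 0.05, and 0 of the 43 genes were among them. The smallest adjusted p of a listed gene was 0.705, and log2 differences ran from -0.33 to 0.32 with a median of 0.022, against 0.011 over all genes. The median size of a difference, whatever its sign, was 0.10. At an unadjusted p under 0.05, 6 of 43 genes were higher in SCGB3A1 and 5 of 43 lower, against 3.93% higher and 2.89% lower over all genes. Both directions together made 25.6% of the listed genes, 6.8% of all genes and 8.0% of the genes above the median control level. The groups did not overlap for 8 genes on the higher side and 7 on the lower side, against 7.09% and 5.24% of all genes. The listed genes share regulators and arrays, so their counts are not independent, and the shares are given as a description. In bulk RNA, fewer cells that express a gene and less RNA per cell cannot be told apart.

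The intervals bound the differences on the probe sets used. For 38 of 43 genes the 95% interval of the difference lay within 0.5 log2 units on either side of 0. It reached past that bound for OASL, IFIT2, IFIT3 and IFIH1 on the lower side and for CXCL11 on the higher side, with outer limits of -0.55 and 0.51. Among probe sets not used, intervals also reached past it on the lower side, to -0.55 for RSAD2, -0.51 for RIGI and -0.63 for CXCL11. The spread between arrays of a group was like that of other genes: the median SD of the 43 genes was 0.080 in SCGB3A1 and 0.086 in control, against 0.085 in SCGB3A1 and 0.091 in control over all genes.

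**Figure D2:**
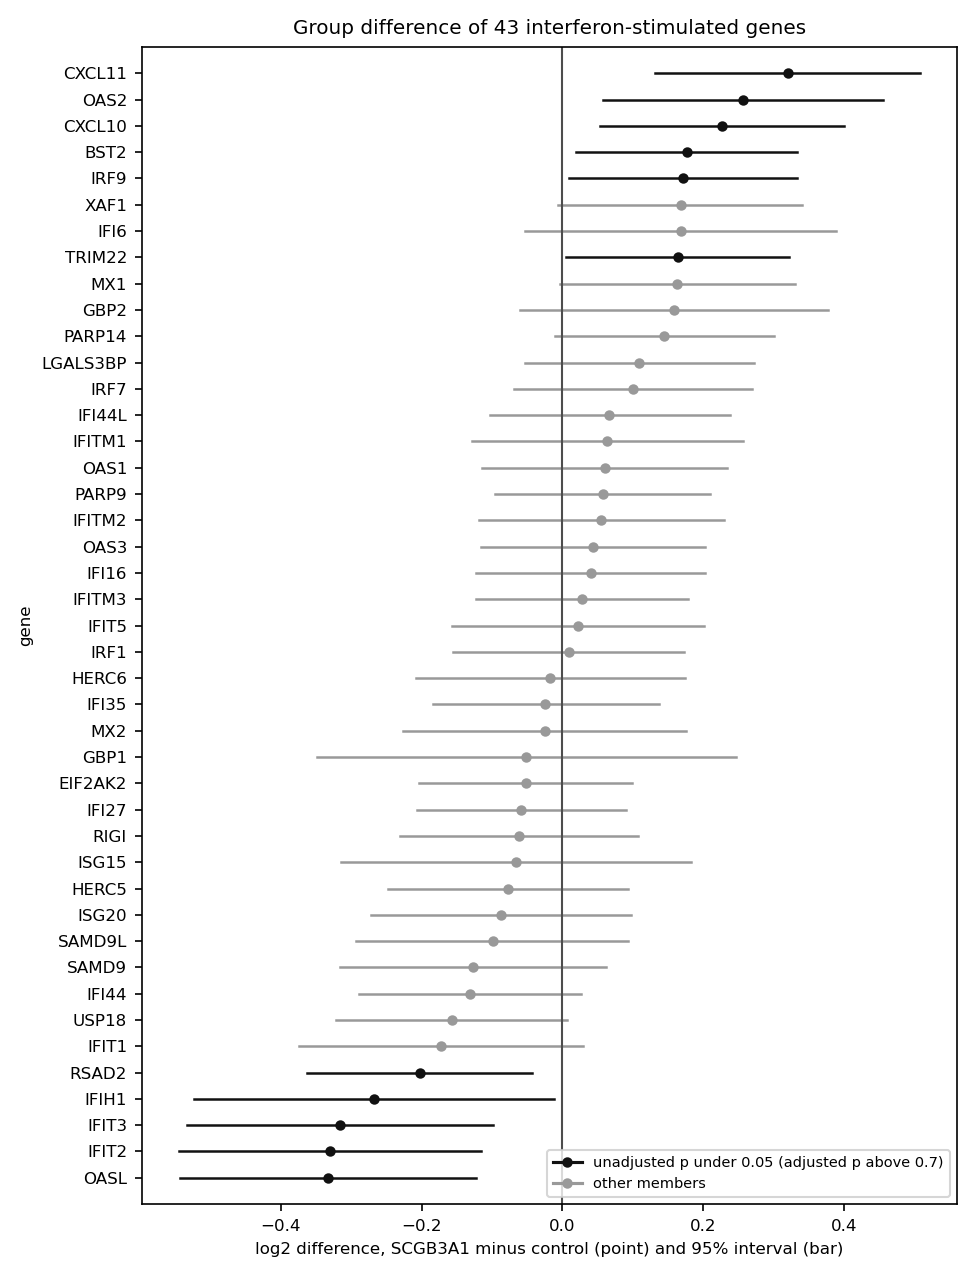
Log2 difference of each of 43 interferon-stimulated genes, SCGB3A1 minus control (x axis, point), with its 95% interval from limma (bar), ordered by size from CXCL11 at the top to OASL at the bottom. The 11 genes in black have an unadjusted p under 0.05 and intervals that leave out 0; their adjusted p-values are 0.705 and above.

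Control replicate 2 bears on many of these values and is described first. It correlated with the others at 0.9894 to 0.9931, where the highest correlation between any 2 arrays was 0.9960, and limma's array weight for it was 0.522. Of the 5 lower genes, 4 had their highest value of all 6 arrays in control replicate 2, and of the 6 higher genes, 4 had their lowest value there. These genes were picked by their group difference, which by itself tends to place the peak of a lower gene in a control array. Control replicate 2 held the highest value for 21.5% of all genes and 25.6% of the listed genes. For SCGB3A1 replicate 3 these shares were 14.1% and 30.2%. Without control replicate 2, 5 genes were higher and 6 lower at an unadjusted p under 0.05, against 3.81% and 2.71% of all genes. The 11 genes were then CXCL11, TRIM22, MX1, XAF1 and PARP14 on the higher side and OASL, IFIT2, IFIT3, RSAD2, IFI44 and SAMD9L on the lower side. For the genes at an unadjusted p under 0.05 with all arrays, the difference without this array is given beside the gene.

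**Figure D3:**
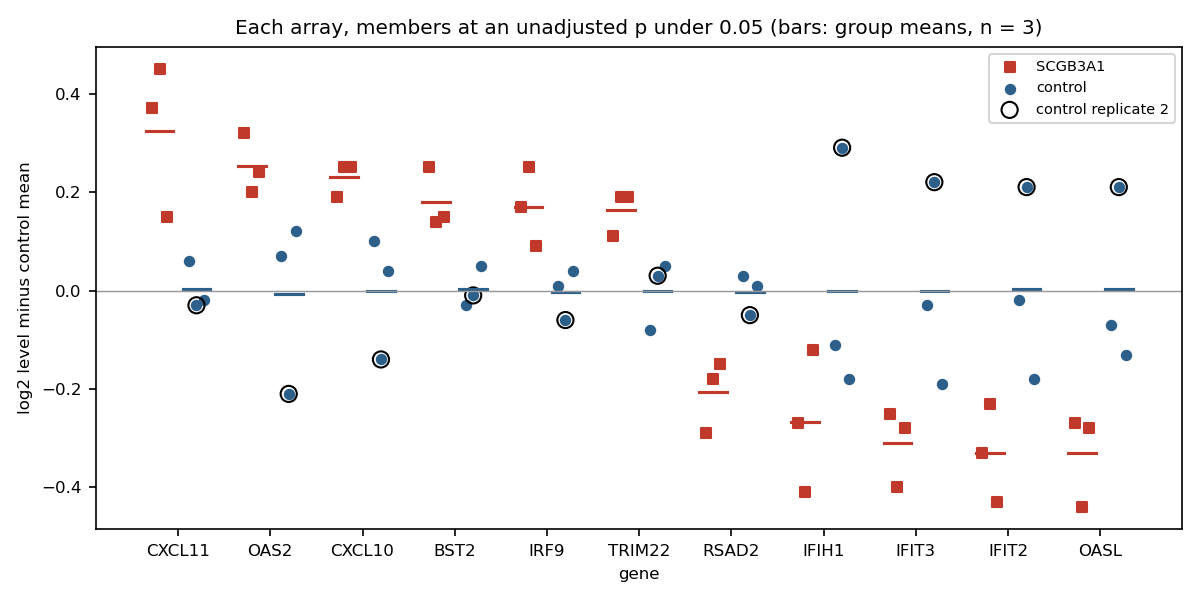
The 11 interferon-stimulated genes at an unadjusted p under 0.05 in each array, as log2 level minus the control mean of the gene (y axis); squares are SCGB3A1, circles control, short bars the group means (n = 3 each). Control replicate 2, ringed, is the highest point of IFIH1, IFIT3, IFIT2 and OASL and the lowest point of CXCL11, OAS2, CXCL10 and IRF9.

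The regulators IRF9, IRF7 and IRF1 all had small positive differences, and IRF9 alone among them had groups that did not overlap. IRF9, the DNA-binding part of ISGF3, gave 9.17, 9.25 and 9.09 in SCGB3A1, against 9.01, 8.94 and 9.04 in control. Its log2 difference was 0.17 ± 0.07 (SE), with an unadjusted p of 0.0397 and an adjusted p of 0.791 (limma), and 0.14 without control replicate 2 (unadjusted p 0.101). IRF7, the factor that amplifies the production of type I interferon, gave 8.44, 8.27 and 8.24 in SCGB3A1, against 8.17, 8.22 and 8.26 in control, a difference of 0.10 ± 0.08 with overlapping groups. IRF1, a factor induced by interferon gamma, gave 8.73, 8.69 and 8.84 in SCGB3A1, against 8.73, 8.82 and 8.69 in control. Its difference was 0.009, with a 95% interval from -0.16 to 0.17.

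On the probe sets used, all 3 listed genes of RNA sensing had negative differences, of which IFIH1 had the largest. IFIH1 encodes MDA5, which binds long viral RNA duplexes, and gave 8.29, 8.15 and 8.44 in SCGB3A1, against 8.45, 8.85 and 8.38 in control. The groups overlapped, and the value of 8.85 in control replicate 2 stood apart from the other 5. The log2 difference was -0.27 ± 0.12 (SE; unadjusted p 0.0419, adjusted p 0.798) and came to -0.12 without that array (unadjusted p 0.21). RIGI (listed under its former symbol DDX58), the sensor of short viral RNA with a triphosphate end, gave 8.38, 8.44 and 8.30 in SCGB3A1, against 8.38, 8.54 and 8.38 in control, a difference of -0.062. EIF2AK2, the kinase PKR that halts translation when RNA duplexes are present, had a difference of -0.052, and its other probe sets gave 0.146 and 0.013. The RNA sensor DHX58, not among the listed genes and given below, lay on the higher side with a difference of 0.20.

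The IFIT family, whose proteins bind foreign RNA and block its translation, held 2 of the 5 lower genes at an unadjusted p under 0.05. IFIT2 gave 9.90, 10.00 and 9.80 in SCGB3A1, against 10.21, 10.44 and 10.05 in control, so that every SCGB3A1 array lay below every control array. Its log2 difference was -0.33 ± 0.10 (SE; unadjusted p 0.00574, adjusted p 0.717). IFIT3, the partner that stabilizes IFIT1, gave 10.85, 10.70 and 10.82 in SCGB3A1, against 11.07, 11.32 and 10.91 in control, again without overlap. The difference of IFIT3 was -0.32 ± 0.10 (unadjusted p 0.0081, adjusted p 0.717). Without control replicate 2 both were smaller, at -0.23 for IFIT2 (unadjusted p 0.0234) and -0.21 for IFIT3 (unadjusted p 0.0337). IFIT1, which recognises the cap of viral RNA, gave 9.49, 9.25 and 9.37 in SCGB3A1, against 9.61, 9.65 and 9.37 in control, with overlapping groups and a difference of -0.17 ± 0.09. IFIT5, which lies beside the other 3 genes on chromosome 10, had a difference of 0.022. The median of the 4 genes was -0.24, and 3 of the 4 were negative.

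Within the OAS family, which makes oligoadenylates in response to viral RNA, the members pointed in both directions. OASL, the member without that enzyme activity, which helps RIG-I instead, gave 9.50, 9.33 and 9.49 in SCGB3A1, against 9.70, 9.98 and 9.64 in control, without overlap. Its log2 difference was -0.33 ± 0.10 (SE; unadjusted p 0.00467, adjusted p 0.707), and -0.23 without control replicate 2 (unadjusted p 0.0181). OAS2 gave 8.05, 7.93 and 7.97 in SCGB3A1, against 7.80, 7.52 and 7.85 in control, also without overlap but on the higher side. The difference of OAS2 was 0.26 ± 0.09 (unadjusted p 0.0157, adjusted p 0.759), and 0.16 without control replicate 2, whose 7.52 was the lowest value (unadjusted p 0.072). OAS1 and OAS3 had differences of 0.060 and 0.044 with overlapping groups.

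On the probe sets used, the 2 chemokines had the highest median difference of any role (0.27). CXCL11, which draws activated T cells through the receptor CXCR3, gave 10.16, 10.24 and 9.94 in SCGB3A1, against 9.85, 9.76 and 9.77 in control. Every SCGB3A1 array lay above every control array, and the log2 difference was 0.32 ± 0.09 (SE; unadjusted p 0.00303, adjusted p 0.705), a ratio of 1.25. It was 0.30 without control replicate 2 and ran between 0.26 and 0.41 as each array was left out in turn. The result depended on the probe set: with the 2 probe sets of CXCL11 averaged it was 0.09 (unadjusted p 0.476), and the other probe set alone gave -0.14. CXCL10, the ligand of the same receptor that is also known as IP-10, gave 8.99, 9.05 and 9.05 in SCGB3A1, against 8.90, 8.66 and 8.84 in control. The groups did not overlap, and the difference was 0.23 ± 0.08 (unadjusted p 0.0146, adjusted p 0.757), or 0.16 without control replicate 2 (unadjusted p 0.0632).

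On the probe sets used, the 4 listed genes of the ISG15 system had negative differences, none at an unadjusted p under 0.05. ISG15, a ubiquitin-like modifier that is also secreted, gave 10.37, 10.18 and 10.65 in SCGB3A1, against 10.40, 10.63 and 10.37 in control. Its arrays were interleaved, and its difference of -0.066 changed to 0.018 without control replicate 2. USP18, the protease that removes ISG15 and restrains the type I receptor, gave 7.38, 7.37 and 7.47 in SCGB3A1, against 7.55, 7.66 and 7.49 in control. The USP18 groups narrowly did not overlap, and the difference was -0.16 ± 0.08 (unadjusted p 0.0594, adjusted p 0.817). HERC5 and HERC6, 2 ligases of the HERC family, had differences of -0.077 and -0.017, and the other probe set of HERC6 gave 0.092. UBE2L6, a further interferon-stimulated gene that also acts in attaching ISG15, went the other way. Its difference was 0.10 without overlap (unadjusted p 0.175 with limma).

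Among the GTPases, MX1 had a difference of 0.16 ± 0.08 (SE; unadjusted p 0.0554, adjusted p 0.814), with a lowest SCGB3A1 array that barely cleared the highest control array. MX2, its relative known for restricting HIV, had a difference of -0.025. GBP1, a guanylate-binding protein that coats bacteria inside cells, gave 9.05, 8.89 and 9.15 in SCGB3A1, against 8.86, 9.47 and 8.92 in control. Its control SD of 0.34 was the highest among the 43 genes in either group and came from control replicate 2. The GBP1 difference of -0.051 became 0.14 without that array (unadjusted p 0.136). GBP2, of the same family, had a difference of 0.16 ± 0.10 with overlapping groups, which was 0.28 without SCGB3A1 replicate 3 (unadjusted p 0.0061) and 0.074 without SCGB3A1 replicate 2.

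Other antiviral effectors were divided. BST2 (tetherin), which holds budding virus particles at the cell surface, gave 11.25, 11.14 and 11.15 in SCGB3A1, against 10.97, 10.99 and 11.05 in control. The BST2 groups did not overlap, and the log2 difference was 0.18 ± 0.07 (SE; unadjusted p 0.0299, adjusted p 0.784). TRIM22, a ligase of the tripartite motif family, gave 10.23, 10.31 and 10.31 in SCGB3A1, against 10.04, 10.15 and 10.17 in control, a difference of 0.16 ± 0.07 without overlap (unadjusted p 0.0441, adjusted p 0.800). RSAD2, the radical SAM enzyme viperin that makes a chain-terminating nucleotide, gave 7.25, 7.36 and 7.39 in SCGB3A1, against 7.57, 7.49 and 7.55 in control. Its difference was -0.20 ± 0.07 without overlap (unadjusted p 0.0171, adjusted p 0.759). These 3 differences moved little without control replicate 2, to 0.17 for BST2 (unadjusted p 0.0549), 0.18 for TRIM22 (unadjusted p 0.0443) and -0.23 for RSAD2 (unadjusted p 0.0148). SAMD9 and SAMD9L, neighbouring genes whose proteins restrict poxviruses, and ISG20, an exonuclease, had differences of -0.13, -0.099 and -0.087.

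The remaining 10 genes had differences between -0.13 and 0.17 and none at an unadjusted p under 0.05 with all 6 arrays. IFI6, a mitochondrial protein that opposes cell death, gave 9.75, 10.03 and 10.20 in SCGB3A1, against 9.83, 9.81 and 9.84 in control, so that the wide spread lay in the SCGB3A1 arrays. Its difference of 0.17 was 0.063 without SCGB3A1 replicate 3 and 0.29 without SCGB3A1 replicate 1 (unadjusted p 0.00622). XAF1, which promotes apoptosis, and PARP14, an ADP-ribosyltransferase, had differences of 0.17 and 0.15, and the PARP14 groups did not overlap. IFI44 (-0.13) and IFI27 (-0.058) did not overlap on the lower side. For IFI27 this came from tight replicates, at 10.22, 10.24 and 10.26 in SCGB3A1, against 10.30, 10.27 and 10.32 in control. IFI44L, IFI35 and PARP9 had differences of 0.067, -0.024 and 0.058.

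The direction of a gene depended in part on the probe set that stood for it. Of the 43 genes, 19 had 1 probe set and 24 had several, 76 probe sets in all, of which 0 had an adjusted p under 0.05 (smallest 0.475). Each gene was represented by its probe set with the highest mean. In 15 of the 24 genes all probe sets had the same sign. The sign differed within IFI16, OAS2, XAF1, HERC6, IFIH1, EIF2AK2, GBP1, CXCL11 and PARP14.

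**Figure D4:**
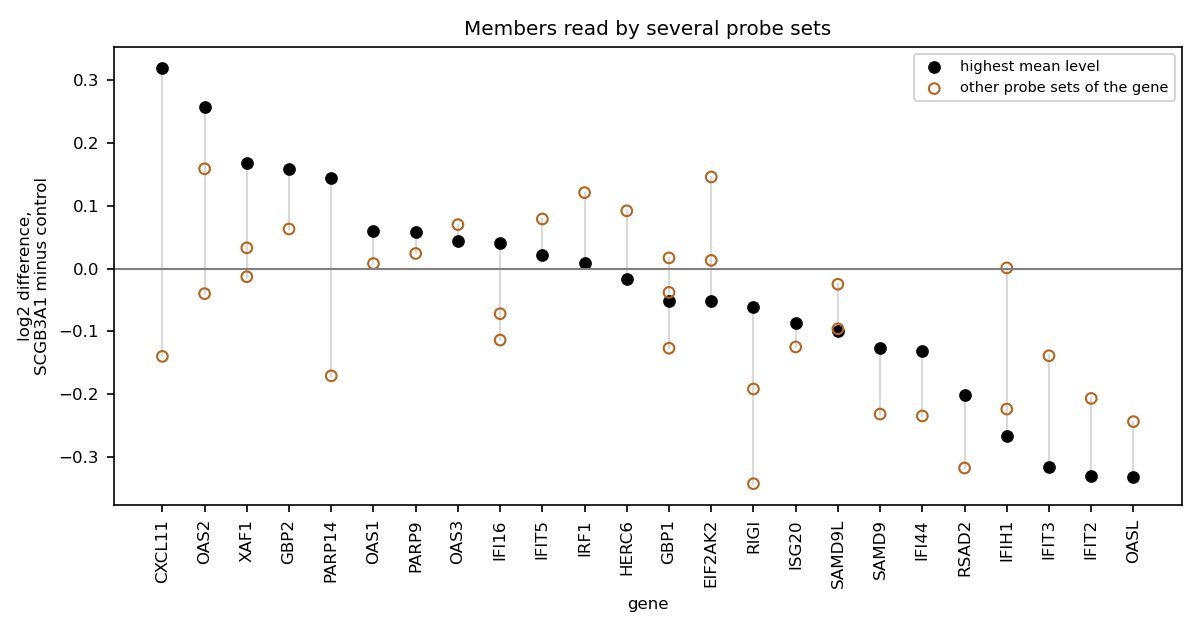
Log2 difference, SCGB3A1 minus control (y axis), of every probe set of the 24 interferon-stimulated genes that had several; the filled point is the probe set with the highest mean and stands for the gene, open points are the others. Points of OASL, IFIT2, IFIT3, RSAD2 and RIGI all lie below 0, while those of CXCL11 and PARP14 lie on both sides.

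The most distant pair belonged to CXCL11. Its second probe set averaged 7.98 in SCGB3A1 and 8.12 in control, with a difference of -0.14 ± 0.22 (SE; unadjusted p 0.544), opposite to the 0.32 of the first, so that the CXCL11 difference rests on 1 probe set. PARP14 likewise had a second probe set at 6.27 in SCGB3A1 and 6.44 in control, a difference of -0.17 (unadjusted p 0.0404), near the floor of the arrays. The reverse held for RIGI, where the probe set used had the smallest difference of 3. Another gave -0.19 (unadjusted p 0.0304). The remaining one averaged 8.03 in SCGB3A1 and 8.37 in control, a difference of -0.34 ± 0.08 (SE) with an unadjusted p of 0.000883 and the adjusted p of 0.475 named above. Both probe sets of RSAD2 (-0.20 and -0.32), OASL (-0.33 and -0.24), IFIT2 (-0.33 and -0.21), IFIT3 (-0.32 and -0.14) and SAMD9 (-0.13 and -0.23) were negative. For OAS2, 2 of 3 probe sets were positive, at 0.26 and 0.16, and the third gave -0.040.

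The rest of the pathway was followed in lists of 84 further genes, of which 78 were measured. None of the 78 had an adjusted p under 0.05 with limma (smallest 0.705), and at an unadjusted p under 0.05 there were 3 higher and 2 lower, a share close to the 3.93% and 2.89% of all genes. The interferon genes themselves lay at the floor of the arrays. The 18 measured ligands had control levels between 6.04 and 6.72, at a median percentile of 12.8, within the range of the tissue-restricted genes or below it. IFNE, which encodes interferon epsilon, was the lower gene among them at an unadjusted p under 0.05, with 6.13 in SCGB3A1 and 6.30 in control (unadjusted p 0.0417). IFNB1, which encodes interferon beta, averaged 6.32 in SCGB3A1 and 6.34 in control. Receptors and kinases had higher levels. IFNAR1 averaged 9.07 in SCGB3A1 and 9.09 in control, and IFNAR2, the other chain of the type I receptor, 8.85 in SCGB3A1 and 8.87 in control. The kinase JAK1 averaged 10.53 in SCGB3A1 and 10.61 in control. IFNGR1, of the interferon gamma receptor, averaged 12.00 in SCGB3A1 and 11.92 in control.

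Among the sensors and inhibitors, STING1 had the largest difference. STING1, the adaptor that relays the sensing of cytosolic DNA, gave 9.11, 9.21 and 9.09 in SCGB3A1, against 8.94, 8.76 and 8.86 in control, a log2 difference of 0.28 ± 0.08 without overlap (SE; unadjusted p 0.00333, adjusted p 0.705). DHX58, the sensor LGP2, had a difference of 0.20 (unadjusted p 0.0433) at a level near the median gene. SOCS1, which inhibits JAK kinases, gave 8.05, 7.96 and 8.34 in SCGB3A1, against 8.48, 8.19 and 8.43 in control, a difference of -0.25 ± 0.11 with overlapping groups (unadjusted p 0.0365, adjusted p 0.787). The 28 measured of 30 further interferon-stimulated genes had a median control level of 8.97 and a median difference of 0.029, between -0.19 for the helicase DDX60 and 0.17 for SP110. Only DTX3L, the partner of PARP9, had an unadjusted p under 0.05 among them (0.16, unadjusted p 0.0439). CCL5, a chemokine for T cells, averaged 10.30 in SCGB3A1 and 10.47 in control, on the opposite side from CXCL10 and CXCL11. STING1 had 2 probe sets, SOCS1 4 and CCL5 3, and only the one with the highest mean is given for each. Control replicate 2 held the lowest STING1 value (8.76), and fits without that array are not given for these genes.

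**Figure D5:**
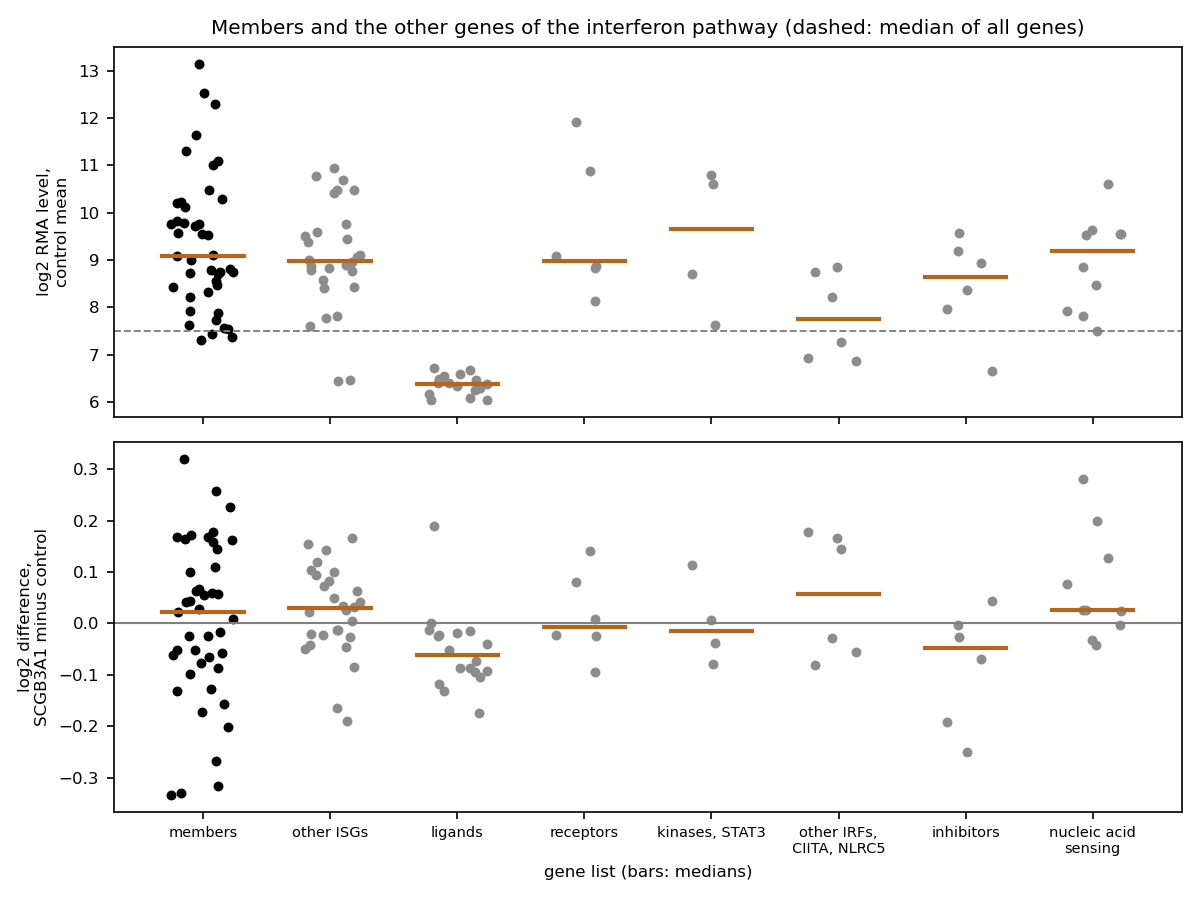
Control mean of each gene (upper panel, log2 RMA level) and log2 difference, SCGB3A1 minus control (lower panel), for the 43 listed interferon-stimulated genes (black) and the other lists of the pathway (grey), with list medians as bars and the median of all genes dashed. The 18 ligands lie between 6.04 and 6.72 in the upper panel, and no list median in the lower panel lies beyond 0.1.

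Of the markers of the cell type, the mesenchymal VIM averaged 14.37 in SCGB3A1 and 14.42 in control, and the epithelial keratin KRT18 11.52 in SCGB3A1 and 11.44 in control. The epithelial markers EPCAM (6.18 in SCGB3A1 and 6.19 in control) and KRT19 (6.48 in SCGB3A1 and 6.54 in control) were at the floor. Of 7 breast epithelial markers, KRT5 and KRT14 were higher in SCGB3A1 at an unadjusted p under 0.05, each with a log2 difference of 0.56 (adjusted p 0.166 and 0.290), and their part in the differences above was not tested. Of the 5 measured immune markers, PTPRC was the highest, at 7.72 in SCGB3A1 and 7.78 in control. All 5 lay within the range of the tissue-restricted genes, which include 2 of them. PTPRC, like the 43 listed genes, lay above the second highest gene of that range (HBB, 7.24 in control).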

How the data were processed

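RNA from 6 SUM159 oncosphere cultures was labelled from 100 ng total RNA and hybridised to Affymetrix U133 Plus 2.0 arrays, 1 sample per array. Per the study's methods, the authors normalized the scanner files by RMA in Chipster (v.3.8.0), so that the deposited table holds log2 signals (5.67 to 14.7 here). RMA draws low values towards a common floor, and quantile normalization hides a shift of total RNA. Arrays have no read depth, and the number of arrays (3 per group) limits the precision.

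Of 54675 probe sets, 62 manufacturer controls were left out and 54613 tested with lmFit and eBayes of limma (version 3.58.1, R 4.3.3), two-sided, with Benjamini-Hochberg adjustment over all of them; SE and 95% intervals are the moderated ones of limma. The p-values reflect only the spread among these samples, which may be technical. Gene names came from the platform annotation of GEO (41091 probe sets with 1 symbol, 1801 with several, 11721 with none), updated by gene identifier to RefSeq symbols, and each of 19775 genes was represented by its probe set with the highest mean. Of the listed genes, 43 of 44 matched. Promoter sequences are from RefSeq (GRCh38.p14).

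The genes and lists were chosen with earlier results of these data known. Values are given in all 6 arrays for the 6 highest and 4 lowest control means, each gene at an unadjusted p under 0.05, the 5 highest and 5 lowest differences and the regulators, together with a few chosen after their values were seen (ISG15, IFIT1, USP18, GBP1, RIGI, IFI6, IFI27). Alternatives were a replicate block, each array left out, array weights, a variance trend with intensity, median centring, leaving out dim probe sets or those prone to cross-hybridization (IDs ending in s_at or x_at), averaging a gene's probe sets, and adjustment over genes only.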

Additional observations from a re-analysis of the deposited data

How the results depend on the processing

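No interferon-stimulated gene reached an adjusted p under 0.05 in limma under any alternative tried (smallest 0.352). Of 593 comparisons of a gene with an alternative, 567 kept the sign of the difference and 26 did not, and 30 of 43 genes kept it in all. The count of all probe sets past adjusted p 0.05 was 10, and became 16 with array weights, 19 with an intensity trend in the variance, 6 without dim probe sets and 1 to 6 as each array was left out. The 6 higher genes at an unadjusted p under 0.05 became 3 to 6 with an array left out and 9 with array weights. The 5 lower genes became 4 to 7 with an array left out, 9 when the probe sets of each gene were averaged and 6 with array weights. The median level (9.085) became 8.699 with that average and 8.703 without probe sets ending in s_at or x_at, which left 34 genes, and the median difference (0.0223) became -0.0379 without those probe sets and ranged from 0.0081 to 0.0464 with an array left out.

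The sign turned with array weights for IFI35 (0.001) and GBP1 (0.025); with averaged probe sets for IFI16 (-0.048), HERC6 (0.037), EIF2AK2 (0.036) and PARP14 (-0.013); and without s_at and x_at probe sets for CXCL11 (-0.140), whose other probe set then stands for it. With each array left out, signs turned within the ranges -0.162 to 0.142 (GBP1), -0.066 to 0.071 (HERC6), -0.003 to 0.070 (IFI16), -0.056 to 0.013 (IFI35), -0.011 to 0.085 (IFIT5), -0.005 to 0.127 (IFITM1), -0.001 to 0.100 (IFITM2), -0.035 to 0.046 (IRF1), -0.192 to 0.045 (ISG15) and -0.086 to 0.062 (MX2). Other than for the probe set choice, the cause was not tested. OASL, IFIT2, IFIT3 and CXCL11 kept an unadjusted p under 0.05 in 6 of 6 such fits, and CXCL10 in 5, OAS2 and RSAD2 in 4, BST2, TRIM22 and IFIH1 in 3 and IRF9 in 2.

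Deviations of samples with the same replicate number had correlations of 0.180, -0.191 and -0.117 over genes. Of the 3 pairs only that of replicate 1 correlated best with its own number. With 3 arrays per group the deviations within a group are tied to each other, so these correlations cannot decide whether replicates shared a preparation. With the replicate block, 4 probe sets had an adjusted p under 0.05, and 4 listed genes were higher and 4 lower at an unadjusted p under 0.05.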
